A study of Mus musculus with 8 samples.

Results

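The antiviral genes Rsad2, Cmpk2, Mx1 and Mx2 were followed through chromatin immunoprecipitation sequencing (ChIP-seq) of mouse macrophages given an inflammatory stimulus. The members are the listed ChIP-seq features inside 2 windows of the mm8 genome, 1 of 140 kb on chromosome 12 for Rsad2 and Cmpk2 and 1 of 270 kb on chromosome 16 for Mx1 and Mx2. The features inside ran from position 26999239 to 27072703 on chromosome 12 and from 97511675 to 97749316 on chromosome 16. The windows held 206 of the 364537 features listed in 8 files, 92 on chromosome 12 and 114 on chromosome 16. The windows were chosen because tall RNA polymerase II (Pol II) positions appear there after stimulation, so Pol II against untreated cells is given below as a description and supports nothing further.

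The cells were bone marrow-derived macrophages of female Fvb mice aged 6 to 8 weeks, grown from marrow precursors in culture. They were mapped for the histone demethylase Jmjd3 after 2 h of lipopolysaccharide and interferon gamma, for Pol II at 0, 2 and 4 h, and for the histone marks H3K4me3 and H3K27me3 at 4 h and in untreated cells (0 h). Each of the 8 groups was 1 library, so no difference between times has a replicate check and no p-value is given. The labels do not say how many mice were pooled, and the cell type was not checked against marker genes here.

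Rsad2 encodes viperin, a radical-SAM enzyme that turns the nucleotide CTP into a chain terminator of viral RNA synthesis. Cmpk2, its neighbour, encodes a mitochondrial nucleotide kinase that can supply CTP. Mx1 and Mx2 belong to the dynamin-like GTPases that block incoming viruses; in mice Mx1 acts in the nucleus against influenza viruses and Mx2 in the cytoplasm. All 4 are classical interferon-stimulated genes, switched on through response elements bound by STAT and IRF factors. In the RefSeq gene table of GRCm38.p6, from strain C57BL/6J, Mx1 and Mx2 are both classed as transcribed pseudogenes. H3K4me3 marks promoters, H3K27me3 is the Polycomb mark of silent genes, and Jmjd3, the product of Kdm6b, demethylates it.

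No gene coordinates of mm8 were used. Within each window Pol II formed a pair of dense tracts, defined as at least 5 positions with counts of at least 50 in the 2 h or 4 h list and steps of at most 4 kb. They were assigned by gene order: the GRCm38.p6 table lists Rsad2 directly before Cmpk2, and Mx1 before Mx2 with Fam3b and the pseudogene Gm9242 between. The tract called Rsad2 spanned 27028265 to 27046267 and the one called Cmpk2 27055740 to 27070727 on chromosome 12. The tract called Mx1 spanned 97550483 to 97567632 and the one called Mx2 97690264 to 97723449 on chromosome 16. The tracts were 9.47 kb apart on chromosome 12 and 122.6 kb apart on chromosome 16. This assignment rests on order alone.

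The gene starts of Rsad2 and Cmpk2 are shown because Pol II and Jmjd3 were tallest, and H3K4me3 stood, at or near the facing ends of their tracts. RefSeq promoter sequences on GRCm38.p6 were matched for 2 of the 4 genes. Each runs 5′ to 3′ along its gene, from 250 bases before to 50 after the annotated start, and capitals mark the core of an interferon-stimulated response element (ISRE). The Rsad2 sequence is chr12:26456403-26456702 on the minus strand and the Cmpk2 sequence is chr12:26468965-26469264 on the plus strand, so that the genes point away from each other; these addresses cannot be set beside mm8 positions.
Rsad2: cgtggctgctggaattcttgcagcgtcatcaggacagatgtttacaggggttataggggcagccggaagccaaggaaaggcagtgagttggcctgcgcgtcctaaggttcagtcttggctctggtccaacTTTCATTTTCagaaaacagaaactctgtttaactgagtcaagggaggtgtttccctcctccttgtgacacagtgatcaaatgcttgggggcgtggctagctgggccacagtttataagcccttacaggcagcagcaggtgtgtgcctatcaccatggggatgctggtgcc
Cmpk2: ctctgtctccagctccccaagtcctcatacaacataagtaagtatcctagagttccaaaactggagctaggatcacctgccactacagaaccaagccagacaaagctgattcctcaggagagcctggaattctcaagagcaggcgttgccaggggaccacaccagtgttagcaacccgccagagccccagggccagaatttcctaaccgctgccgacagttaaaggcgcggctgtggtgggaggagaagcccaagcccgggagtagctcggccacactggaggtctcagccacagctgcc
The ISRE core was searched as GAAANNGAAA on both strands. It matched once in the Rsad2 sequence, on the opposite strand, at bases -120 to -111 before the start. It matched nowhere in the Cmpk2 window of these letters. Of all 32851 promoters in the table, 3.44% held it.

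Among 18 other interferon-stimulated antiviral genes listed for company (Isg15, Ifit1, Oas1a, Stat2, Ddx58 and others), 13 had a promoter in the table and 8 of those held the ISRE core. A GAS core (TTCNNNGAA, the gamma interferon-activated site), searched the same way, was in neither Rsad2 nor Cmpk2, in 3 of those 13 genes and in 8.30% of all promoters. TATAAA matched once in Rsad2, on the opposite strand at bases -10 to -5, not in Cmpk2, in 3 of the 13 and in 13.6% of all promoters. An NF-kB site was in neither gene, in 2 of the 13 and in 8.46% of all promoters. A match describes letters and does not show binding.

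In untreated macrophages Pol II was listed at 3 positions of the Rsad2 and Cmpk2 window, and at 2 h at 29. At 2 h positions ran the length of the Rsad2 tract and most of the Cmpk2 tract. The tracts were drawn from the 2 h and 4 h lists, so this run follows from their definition. All values are overlap counts as deposited, 1 per feature, with no scaling to depth stated. Near the facing end of the Rsad2 tract, Pol II had a count of 9 at 0 h (position 27042297), 398 at 2 h (27042359) and 341 at 4 h (27042523). The tract itself ran on to 27046267, where the 2 h count was 53. At the far end of Rsad2 it had 10 at 0 h (27028403), 366 at 2 h (27028638) and 301 at 4 h (27028265). At the facing end of Cmpk2 it had 26 at 0 h (27055704), 382 at 2 h (27055783) and 327 at 4 h (27055740). All 3 sites were thus listed before stimulation, the 2 of Rsad2 at or next to the lowest count of 9 in the 0 h list and that of Cmpk2 above its median of 14.

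The ratios of 2 h over 0 h at these sites were 44.2, 36.6 and 14.7, with counting intervals at 95% of 23.1 to 97.4, 19.7 to 77.0 and 9.87 to 22.8. Among 28434 Pol II positions paired between 2 h and 0 h (nearest to each other and under 500 bp apart) the median ratio was 1.44. The 2 Rsad2 sites had the first and second highest ratios of that set and the Cmpk2 site ranked 40. A ratio of at least 10 was found at 0.542% of the pairs. The ratios of 4 h over 0 h were 37.9, 30.1 and 12.6, ranking 1, 3 and 42 of 31049 pairs, of which 0.287% reached 10. These values chose the window and are not evidence of anything further.

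**Figure D1:**
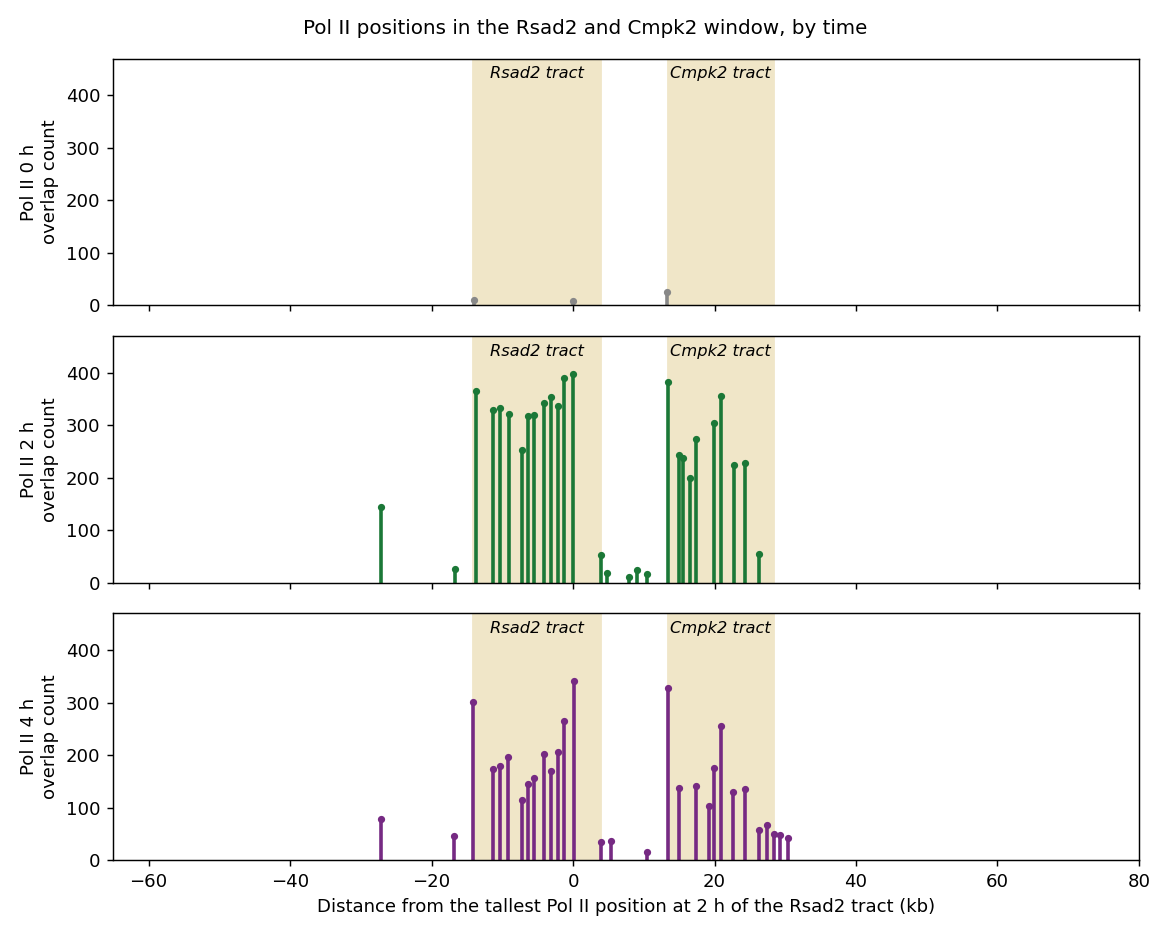
Overlap count of each Pol II position in the Rsad2 and Cmpk2 window (vertical axis) by distance in kb from the tallest 2 h position of the Rsad2 tract (horizontal axis), at 0, 2 and 4 h from top to bottom, 1 library each; shading marks the tracts. The 3 positions at 0 h had counts of 9 to 26, and the tracts reached 398 at 2 h and 341 at 4 h.

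At 2 h the Rsad2 tract held 13 Pol II positions with counts of 53 to 398 and a median of 333. The Cmpk2 tract held 10 positions with counts of 55 to 382 and a median of 241. For comparison, the median count of the 57200 positions in the 2 h list was 17. The 5 tallest positions of the window at 2 h had counts of 398, 390, 382, 366 and 355, at 27042359, 27041138, 27055783, 27028638 and 27063327. Of the 47 positions with a count of at least 350 in the whole list, 6 lay in this window. The highest counts of the 7 Pol II and histone lists were 351 to 402; whether counts level off there was not tested. At 4 h the 5 tallest had counts of 341, 327, 301, 266 and 256, at 27042523, 27055740, 27028265, 27041140 and 27063335. Between the tracts, 4 lower positions at 2 h had counts of 12 to 24.

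Most Pol II positions of the window had no partner before stimulation. At 2 h, 26 of 29 positions had no 0 h position within 500 bp, against a background of 49.6% of all 2 h positions. At 4 h, 27 of 30 had none, against 45.2% of all 4 h positions. Both backgrounds include chromosome 16 positions beyond the last one of the 0 h list, counted as having none. The window was chosen on this contrast, so nothing is read from these shares.

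The Mx1 and Mx2 window could be compared only between 4 h and 2 h, because it starts 9.85 Mb beyond the last Pol II position that the 0 h list holds on chromosome 16. At the upper end of the Mx1 tract, Pol II had a count of 373 at 4 h (97567627) and 337 at 2 h (97567632). The other tallest positions of the window at 4 h had counts of 274, 270, 246 and 231, at 97551393, 97550483, 97562267 and 97691063. Those at 2 h had counts of 274, 269, 229 and 228, at 97551401, 97562304, 97692773 and 97691065. Mx1 held the higher counts at both times and Mx2 the longer tract, 33.2 kb against 17.1 kb for Mx1.

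**Figure D2:**
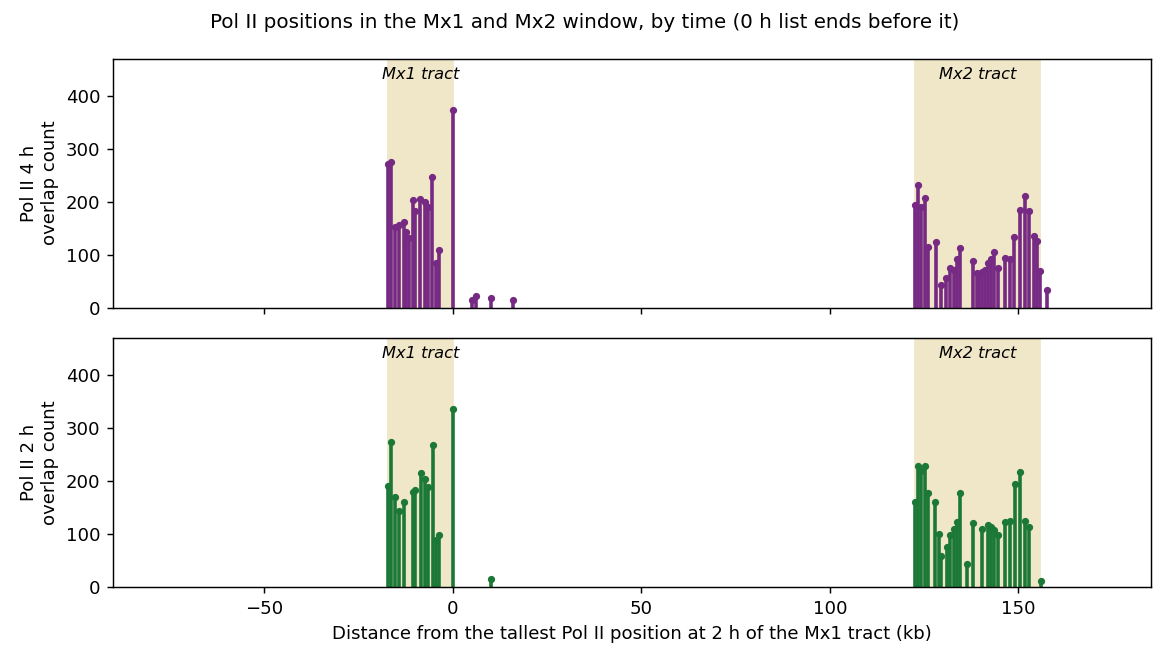
Overlap count of each Pol II position in the Mx1 and Mx2 window by distance in kb from the tallest 2 h position of the Mx1 tract, at 4 h (top) and 2 h (bottom), 1 library each; shading marks the tracts. The tallest position was at the upper end of the Mx1 tract at both times (373 at 4 h, 337 at 2 h).

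Between 4 h and 2 h, Pol II counts were lower along Rsad2 and Cmpk2 and about level along Mx1. The Rsad2 tract had a median count of 179 at 4 h and 333 at 2 h, and the Cmpk2 tract 135 at 4 h and 241 at 2 h. The Mx1 tract had 186 at 4 h and 187 at 2 h, and the Mx2 tract 92.5 at 4 h and 122.5 at 2 h. All 13 paired positions of Rsad2 were lower at 4 h than at 2 h, with ratios of 0.455 to 0.857. Of the 8 pairs of Cmpk2, 7 were lower, with ratios of 0.516 to 1.05 overall. Of the 14 pairs of Mx1, 8 were at least as high at 4 h and the ratios ran from 0.90 to 1.41. Of the 24 pairs of Mx2, 20 were lower, and the ratios ran from 0.618 to 1.68.

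Summed over the pairs of a tract, the ratio of 4 h over 2 h was 0.604 (0.575 to 0.635) for Rsad2, 0.658 (0.614 to 0.705) for Cmpk2, 1.04 (0.983 to 1.09) for Mx1 and 0.860 (0.818 to 0.904) for Mx2. The brackets are 95% counting intervals and cover counting error only, not variation between cultures or library depth. Since depth is unknown, the ratios were read against all 5424 pairs with a 2 h count of at least 100, whose median was 0.833. Relative to that median, Rsad2 lay at 0.725, Cmpk2 at 0.790, Mx1 at 1.24 and Mx2 at 1.03, where its direction turned. The direction of Mx2 depends on this choice: against pairs with a mean count of at least 100, whose median was 0.881, it lay at 0.977, and against all pairs, whose median was 1, it lay at 0.860. Rsad2 and Cmpk2 were below 1 under all 3 scalings. Mx1 was above 1 under each, but against all pairs its 1.04 had an interval that includes 1 (0.983 to 1.09). A count lower by at least 1.5 times at 4 h was found at 9 of 12 such positions of Rsad2, 5 of 7 of Cmpk2, 0 of 12 of Mx1 and 4 of 20 of Mx2, against 21.1% of the 5424. A count at least as high at 4 h was found at 21.3% of the 5424. The windows were chosen on tall Pol II after stimulation and the tracts on counts at 2 h or 4 h. These ratios and shares are therefore not independent of that choice. The 5424 pairs were not matched in height to the tracts, and the 12 Rsad2 positions had 2 h counts of 253 to 398. Keeping only pairs with a 2 h count of at least 100 moved the median from 1 to 0.833. The part of such selection in the Rsad2 and Cmpk2 ratios was not tested.

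**Figure D3:**
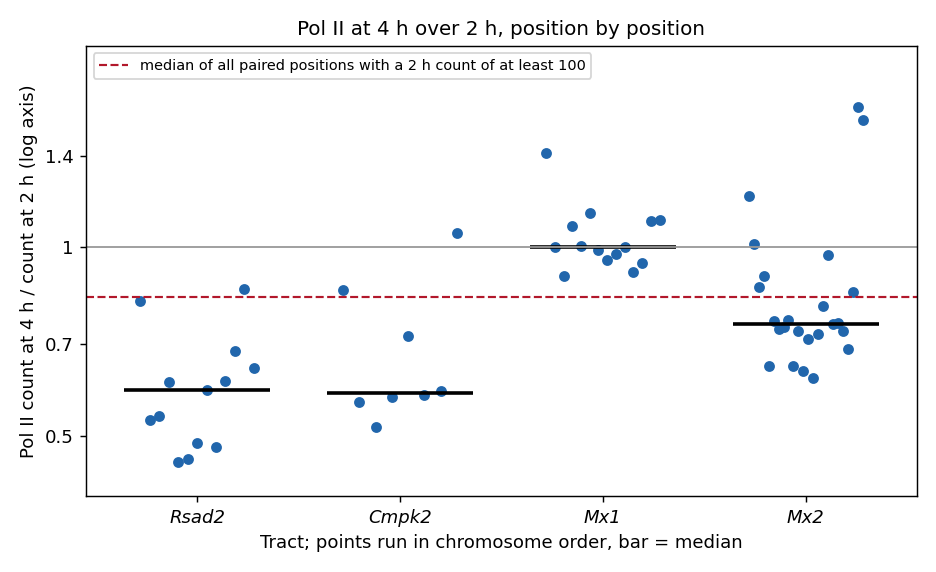
Ratio of the Pol II count at 4 h to that at 2 h (log axis) for each paired position of the 4 tracts, in chromosome order within a tract; black bars are medians and the dashed line is the median of all pairs with a 2 h count of at least 100 (0.833). Rsad2 and Cmpk2 points lie mostly under the line, Mx1 points lie above it, and 2 Mx2 points near its upper end reach 1.60 and 1.68.

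The lower counts at 4 h were uneven along the genes. In Rsad2 the ratios nearest 1 were at 2 of the tallest positions. They had 301 at 4 h and 366 at 2 h at the far end (ratio 0.822) and 341 and 398 near the facing end (0.857). The smallest ratios were in the middle, at 27035176 with 115 at 4 h and 253 at 2 h (0.455) and at 27035973 with 146 at 4 h and 318 at 2 h (0.459). In Cmpk2 the facing end had 327 at 4 h and 382 at 2 h (0.856), and the smallest ratio, 0.516, was at 27059678 with 141 at 4 h and 273 at 2 h. The shared position of highest coordinate in Rsad2, 27046265, lay at the facing end and had 34 at 4 h and 53 at 2 h (0.642). That of Cmpk2, 27068666, lay toward the far end and had 58 at 4 h and 55 at 2 h (1.05). The ratios of 0.822 to 0.857 stood at 2 h counts of 366 to 398, close to the highest count of 402 in that list. Another Rsad2 position in that range, 27041140, had 266 at 4 h and 390 at 2 h (0.682). The part of a ceiling on counts in these ratios was not tested.

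At the Mx genes some positions at the ends away from the H3K4me3 cluster had higher counts at 4 h. The lowest position of Mx1 had 270 at 4 h and 191 at 2 h, a ratio of 1.41. The next position, 97551393, had 274 at both times, and 97552302 had 153 at 4 h and 170 at 2 h (0.90). Near the upper end of Mx2, 97719380 had 210 at 4 h and 125 at 2 h, and 97720549 had 182 at 4 h and 114 at 2 h. Beyond them 2 positions of the 4 h list, 97721666 (136) and 97722546 (125), had no 2 h position within 1.1 kb. At the last shared site Pol II had a count of 69 at 4 h (97723449) and 11 at 2 h (97723706). Over the last stretch of the Mx2 tract the 4 h list thus held the taller positions. Higher counts at 4 h were not confined to those ends. In the H3K4me3 cluster of Mx1, 97567627 had 373 at 4 h and 337 at 2 h (1.11), and outside it 97557068 had 203 and 179 (1.13). The 6 paired Mx2 positions in the 0 h cluster had ratios of 0.646 to 1.21, with a median of 0.881.

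In Cmpk2 the 4 h list also ran beyond the 2 h list, at lower counts. Its 2 h positions ended at 27068611 (55), and the 4 h list went on with 27069781 (68), 27070727 (50), 27071657 (48) and 27072703 (43). Over the window, 6 of 30 positions at 4 h on chromosome 12 and 11 of 51 on chromosome 16 had no 2 h position within 500 bp, both below the background of 32.3% of all 4 h positions. Conversely, 5 of 29 positions at 2 h on chromosome 12 and 2 of 42 on chromosome 16 had no 4 h position, against 32% of all 2 h positions. In Rsad2 all 13 positions of 4 h had a partner at 2 h.

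H3K4me3 was present at all 4 genes before stimulation and was taller and wider at 4 h, with most of the added width lying over the Pol II tract. No 4 h cluster of either window lacked a 0 h cluster, as 5.07% of all 4 h clusters did, and no 0 h cluster lacked one at 4 h, as 13.1% of all did. The Rsad2 cluster had a count of 187 at 4 h and 58 at 0 h, a ratio of 3.22 (2.39 to 4.41). The Cmpk2 cluster had 249 at 4 h and 166 at 0 h, a ratio of 1.5 (1.23 to 1.84). The Mx1 cluster had 162 at 4 h and 34 at 0 h, a ratio of 4.76 (3.28 to 7.12). The Mx2 cluster had 201 at 4 h and 80 at 0 h, a ratio of 2.51 (1.93 to 3.30). All intervals of the 4 ratios lie above 1 for counting error; biological variation was not measured.

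The untreated level differed between the genes. Within the 0 h list, 35.4% of clusters had a lower count than Mx1, 45.0% than Rsad2, 50.3% than Mx2 and 69.5% than Cmpk2. Within the 4 h list these shares were 64.3% for Mx1, 72.5% for Rsad2, 78.5% for Mx2 and 96.4% for Cmpk2. The order of the 4 genes was the same at both times, and the genes with the lower counts at 0 h had the larger ratios. The 0 h count is also the divisor of the ratio, so nothing further is read from this.

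Across 17651 clusters paired 1 to 1 between the lists, the median ratio of 4 h over 0 h was 0.996 for count and 0.973 for width. A count ratio of at least 2 was found at 0.465% of pairs, and at 3 of the 4 genes (Rsad2, Mx1 and Mx2). By count ratio Mx1 ranked 4, Rsad2 16, Mx2 33 and Cmpk2 392. A count ratio and a width ratio of at least 1.5 together were found at 0.595% of pairs and at all 4 genes. The thresholds were set after the values had been seen. These clusters lie at windows chosen on Pol II, which is not independent of H3K4me3, so the ranks describe the 4 genes only.

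The widening was mostly at 1 edge of each cluster. The Rsad2 cluster spanned 27034274 to 27043480 at 4 h (9207 bp) and 27040555 to 27043220 at 0 h (2666 bp), so that it was wider by 6281 bp at the lower edge, inside the tract, and by 260 bp at the upper edge. The Cmpk2 cluster spanned 27054754 to 27061262 at 4 h (6509 bp) and 27054925 to 27058323 at 0 h (3399 bp), wider by 2939 bp at the upper edge, inside the tract, and by 171 bp at the lower. The Mx1 cluster spanned 97560122 to 97568742 at 4 h (8621 bp) and 97564326 to 97568704 at 0 h (4379 bp), wider by 4204 bp at the lower edge, inside the tract, and by 38 bp at the upper. The Mx2 cluster spanned 97688107 to 97699509 at 4 h (11403 bp) and 97689142 to 97695766 at 0 h (6625 bp), wider by 3743 bp at the upper edge, inside the tract, and by 1035 bp at the lower. Rsad2 and Cmpk2 clusters therefore grew in opposite directions. Each would be along its own gene if the assignment by order holds and the GRCm38.p6 strands apply, which was not tested in mm8. The Rsad2 width ratio of 3.45 ranked 14 of 17651; a width ratio of at least 1.5 was found at 6.14% of pairs.

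**Figure D4:**
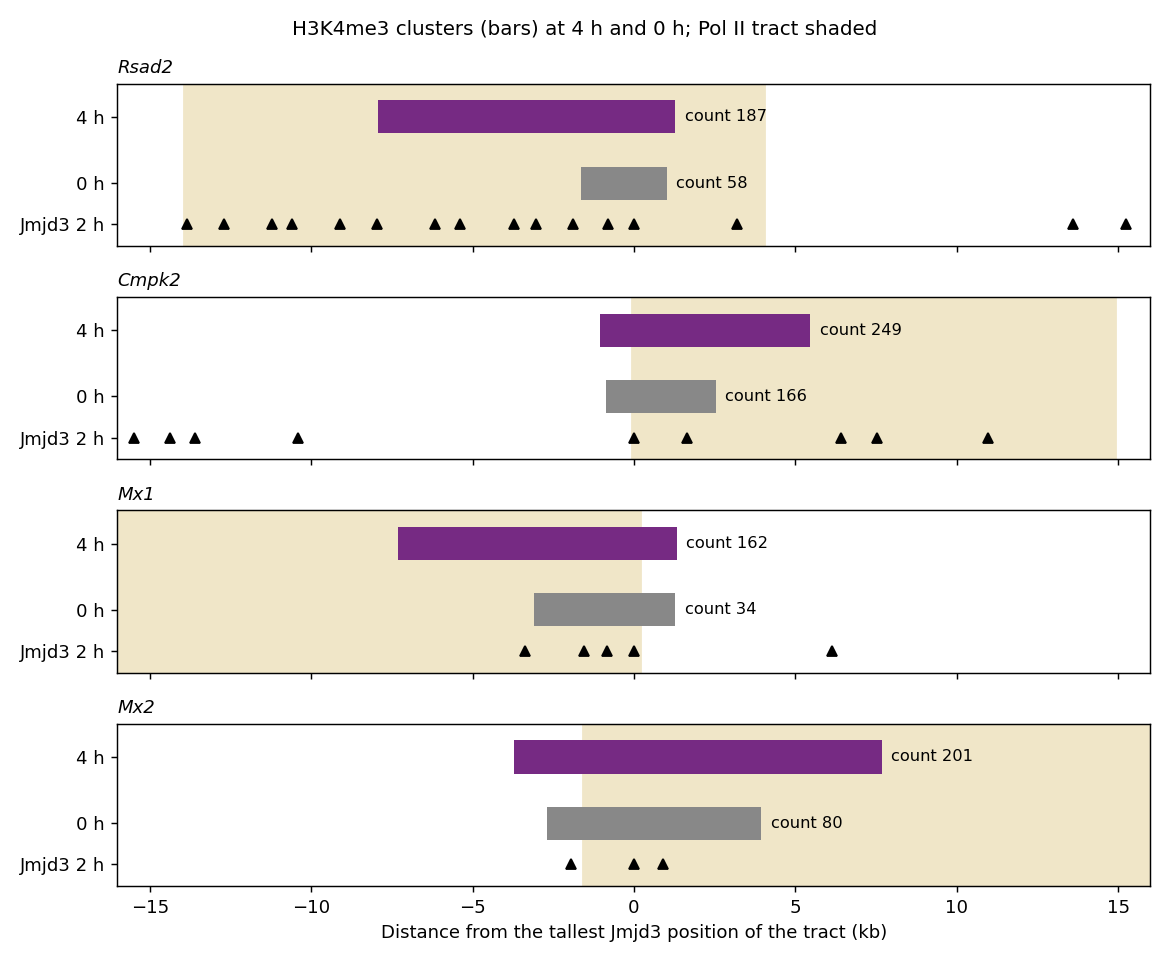
H3K4me3 clusters at 4 h (upper bar) and 0 h (lower bar) of each gene, 1 library each, by distance in kb from the tallest Jmjd3 position of its tract; numbers are overlap counts, triangles are Jmjd3 positions at 2 h and shading is the Pol II tract. Every bar is longer at 4 h, with most of the added length over shading.

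Jmjd3 was listed along the whole Rsad2 tract, and its highest count at each gene stood in the H3K4me3 cluster. Its list was short and low, with 4398 positions and a median count of 10. The Rsad2 and Cmpk2 window held 19 of them, and only 1 of 18741 other 140 kb windows laid end to end held as many. The Mx1 and Mx2 window held 9, and 29 of 9712 other 270 kb windows held as many or more. For Pol II at 2 h, as many positions were in 2.52% of other 140 kb windows and in 3.34% of other 270 kb windows. The windows were chosen on Pol II, so nothing is read from its shares. Of all Jmjd3 positions, 80.7% had a 2 h Pol II position within 500 bp. The Jmjd3 shares are therefore not independent of that choice either.

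In the Rsad2 tract 14 Jmjd3 positions were listed. From the far end, counts were 16 at 27028372, 12 at 27029501, 11 at 27031003, 12 at 27031614, 11 at 27033102, 11 at 27034241 and 11 at 27036033. They went on with 10 at 27036829, 10 at 27038474, 16 at 27039161, 21 at 27040314, 30 at 27041412 and 45 at 27042203, and 1 position of 9 (27045394) lay beyond the H3K4me3 cluster. The 45 at 27042203 ranked 35 in the whole list and lay 156 bp from the tallest Pol II position of 2 h. Counts therefore climbed over the 4 positions up to 27042203. The far end carried a smaller maximum of 16 at 27028372, where Pol II was already listed at 0 h.

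In the Cmpk2 tract 5 Jmjd3 positions had counts of 47 at 27055797, 24 at 27057442, 11 at 27062201, 9 at 27063322 and 10 at 27066749, the last 3 outside the H3K4me3 cluster. The 47 ranked 29 in the list and lay 14 bp from the tallest Pol II position of Cmpk2 at 2 h. In the Mx1 tract 5 positions had counts of 11 at 97551377, near the end away from H3K4me3, then 10 at 97564048, 14 at 97565865, 18 at 97566573 and 21 at 97567421. The 21 lay 211 bp from the Pol II maximum. Near Mx2 the counts were 15 at 97689883, 25 at 97691836 and 15 at 97692744, and 1 further position, of 9 at 97573556, lay between the Mx tracts. Each gene thus had its highest Jmjd3 count within 0 h H3K4me3, toward the end of the tract where H3K4me3 stood.

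**Figure D5:**
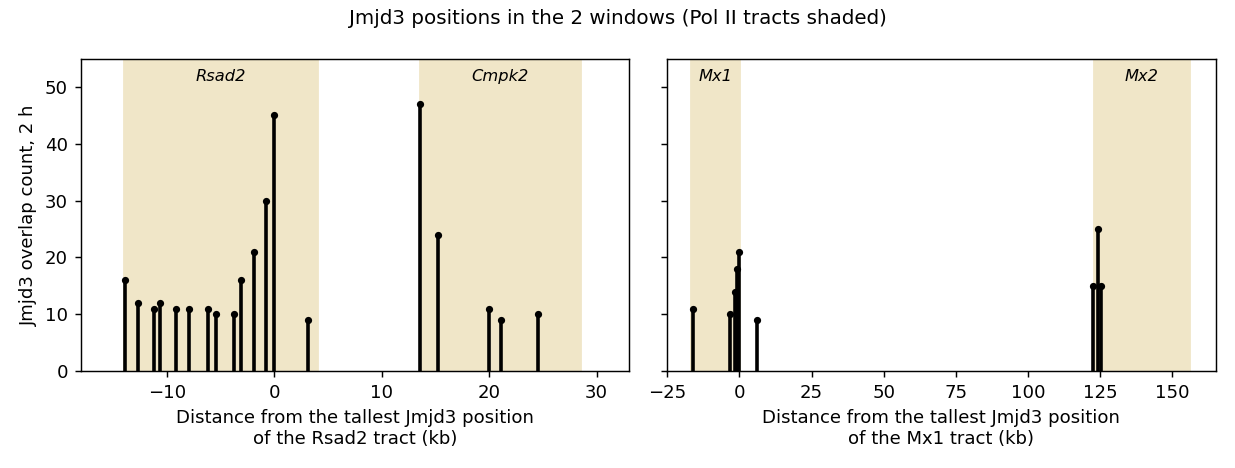
Overlap count of each Jmjd3 position at 2 h by distance in kb from the tallest Jmjd3 position of the Rsad2 tract (left) and of the Mx1 tract (right), 1 library; shading marks the Pol II tracts. Counts peak at 45 for Rsad2, 47 for Cmpk2, 21 for Mx1 and 25 for Mx2.

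Of the 19 Jmjd3 positions on chromosome 12, 16 had a Pol II position within 500 bp at 2 h, near the background of 80.7% of all Jmjd3 positions. On chromosome 16 it was 6 of 9. A Pol II position at 4 h was near 16 of the 19 and 7 of the 9, against 78.6% of all. One at 0 h was near 3 of the 19, against 67% of all, which follows from the choice of the window. In that 67%, Jmjd3 positions beyond the last 0 h Pol II position on chromosome 16 count as having none. H3K4me3 at 4 h was met by 10 of the 19 on chromosome 12 (5 at 0 h) and by 7 of the 9 on chromosome 16 (6 at 0 h), against 84% of all Jmjd3 positions at 4 h and 83.3% at 0 h. The 9 positions without H3K4me3 at 4 h on chromosome 12 had counts of 9 to 16, with the list's median at 10, and lay along tracts with some of the tallest Pol II counts. The part of Pol II in these Jmjd3 counts was not tested. The newly covered stretch of the Rsad2 cluster held 5 Jmjd3 positions and that of Mx1 held 1; those of Cmpk2 and Mx2 held none.

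H3K27me3 was not listed in any of the 4 tracts at 4 h or at 0 h, and none of the 28 Jmjd3 positions had it within 500 bp at either time, against 11% of all Jmjd3 positions at 4 h and 12% at 0 h. The nearest H3K27me3 position to the Rsad2 tract was 27.2 kb away at 4 h (27001038, count 50) and 27.3 kb away at 0 h (27000931, count 41). For Cmpk2 the same positions were 54.7 kb away at 4 h and 54.8 kb away at 0 h. For Mx1 it was 27.6 kb away at 4 h (97522884, count 11) and 38.8 kb away at 0 h (97511675, count 9). For Mx2 it was 1.77 kb away at 4 h (97725215, count 11) and 26.9 kb away at 0 h (97750346, count 10). The Jmjd3 positions of these genes thus stood where its substrate mark was not listed in untreated cells. Most Jmjd3 positions of the whole list did so too. H3K27me3 below the lowest listed count of 9 could not be seen.

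In the Mx1 and Mx2 window 6 H3K27me3 positions were listed at 4 h, with counts of 10 to 11, and 2 at 0 h, both with a count of 9. None of the 6 had a 0 h position within 500 bp, against 51.7% of all 4 h positions. Neither of the 2 at 0 h had a 4 h partner, and on chromosome 12 it was 1 of 3 that had none, against 28.3% of all 0 h positions. All 8 counts were within 2 of the lowest count of their own list.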

How the data were processed

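Each library has 1 deposited list of features whose signal is an overlap count; neither headers nor labels mention scaling to depth or to a control. H3K4me3 features are clusters and all others single positions, per the file headers. The build is mm8 in the submitters' processing notes. Aligner, peak caller and threshold: not given in the sources used here. Per the labels' protocols, chromatin came from 500000000 cells for Jmjd3 and 100000000 for each other library, fragments were 200 to 300 bp, and each library gave over 10000000 uniquely mapped tags.

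Positions under 500 bp apart were counted as shared; a position met a cluster when it lay within 250 bp. Ratios used pairs nearest to each other, or clusters overlapping 1 to 1, with exact binomial 95% intervals. Text names every H3K4me3 cluster and Jmjd3 position and the tallest 5 positions of Pol II per list and window; positions outside the 5 were named after their values were seen. Members, lists and tract limits were chosen with earlier results of these data known. Alternatives changed the sharing distance, count minimum, window ends, ranking and depth scaling. Of 18 pathway genes, positions are not analysed here, for want of an mm8 annotation. Pairing was tested on simulated data (1643 of 1643 planted pairs among 4000 positions recovered). The simulated positions lay further apart than the median step of any tract at 2 h or 4 h. The check therefore covers the code and not pairing among close neighbours. Python 3.11.15, numpy 2.4.6, scipy 1.17.1 and matplotlib 3.10.9 were used.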

Additional observations from a re-analysis of the deposited data

How the results depend on the processing

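No paired analysis was possible because each group holds 1 library. Of 179 alternative values for 80 results, 149 were classed as the same as the main value, 29 as moved and 1 as reversed. Values classed as moved could still lie on the same side of 1 as the main value, as the Rsad2, Cmpk2 and Mx1 ratios given next did. Dividing the Pol II ratios of 4 h over 2 h by the median of all tall pairs, added after seeing the data, gave 0.725 for Rsad2, 0.790 for Cmpk2, 1.24 for Mx1 and 1.03 for Mx2, where the direction turned. Divided by the median of pairs with a mean count of at least 100, they were 0.686, 0.748, 1.18 and 0.977, so that Mx2 did not turn, nor did it against the median of all pairs (0.860). With H3K4me3 clusters at or above their list's median alone, 1 cluster of each window lacked a 0 h partner, since the 0 h clusters of Rsad2 (58) and Mx1 (34) fall under that median. With counts of at least 11, 1 Pol II position at 0 h was left on chromosome 12 and 0 H3K27me3 positions at 0 h on chromosome 16. Narrowing the windows by 20 kb left 1 H3K27me3 position at 4 h on chromosome 12. Widening them by 50 kb gave 19 H3K27me3 positions at 4 h and 11 at 0 h on chromosome 16, with tallest counts of 59 at 4 h and 51 at 0 h. Ranked on their own chromosome in place of the whole list, the tallest features of the Rsad2 and Cmpk2 window stood above 97.6% of Jmjd3 positions, 77.7% of Pol II at 0 h, 99.95% at 2 h and 99.7% at 4 h, 95.7% of H3K4me3 at 4 h and 71.8% at 0 h, and 93.7% of H3K27me3 at 4 h and 91.4% at 0 h. Those of the Mx1 and Mx2 window stood above 95.8% of Jmjd3, 99.8% of Pol II at 2 h, 76.1% of H3K4me3 at 4 h and 54.7% at 0 h, and 20.7% of H3K27me3 at 4 h. The cause of these shifts was not tested. Depth per library is unknown beyond the labels, so counts of different libraries are not on 1 scale.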

Other observations

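Outside the 4 tracts, the chromosome 12 window held 1 further H3K4me3 cluster, which carried H3K27me3 as well. It had a count of 159 at 4 h (26999927 to 27002853) and 130 at 0 h (26999283 to 27001899), a ratio of 1.22 with a counting interval that includes 1 (0.964 to 1.55). H3K27me3 positions inside it had a count of 50 at 4 h and counts of 23 and 41 at 0 h. A further one lay 688 bp outside it at 4 h (count 12) and 18 bp outside it at 0 h (count 11). No Pol II and no Jmjd3 position was listed in the cluster. In the GRCm38.p6 gene table the nearest protein-coding gene that ends before Rsad2 is Rnf144a, an E3 ubiquitin ligase gene; whether the cluster is its start was not tested.

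A single tall Pol II position lay between that cluster and Rsad2, with a count of 78 at 4 h (27015146) and 145 at 2 h (27015154). A lower one, nearer the Rsad2 tract, had 47 at 4 h (27025535) and 27 at 2 h (27025612), so it was higher at 4 h. None was listed between the cluster and Rsad2 at 0 h. Above Cmpk2 the last feature of the window was Pol II at 27072703, and the next feature of any list was 805.3 kb beyond the window, an H3K27me3 position of 0 h (27925262, count 30). At the lower edge the nearest outside feature was 79.1 kb away. The Mx window was cut closer, with H3K27me3 positions of count 10 lying 0.684 kb inside its upper edge (4 h) and 0.346 kb outside it (0 h).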
